A study of Mus musculus with 9 samples.

Results

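The 76 genes described here carry the symbols of mitochondrial (mt) ribosomal proteins, and all but *Mrps36* encode a protein of the mt ribosome. They were chosen by name, as every protein-coding gene of the deposited table whose symbol begins with Mrpl or Mrps followed by a number, with pseudogene rows left out, and they are 76 of 26858 genes. Of these, 47 carry the large subunit prefix Mrpl and 29 the small subunit prefix Mrps. All 76 passed the filter on low counts and were among the 14990 genes tested. *Mrpl53* was not analysed here, and proteins of the mt ribosome with other names are given separately further on.

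RNA-seq was carried out on SIX2 progenitors, the cap mesenchyme cells that give rise to nephrons, sorted by eGFP fluorescence from mouse kidneys at age E18.5. Mutant cells (*Six2-Qpc*−/−, n = 5 libraries) were homozygous for the inactivation of *Uqcrq* (*Qpc*), a subunit of mt respiratory complex III, by *Six2-eGFP/cre* acting on floxed alleles, and control cells (*Six2-Qpc*+/−, n = 4 libraries) were heterozygous. Cells of both genotypes carried the *Six2-eGFP/cre* bacterial artificial chromosome transgene, so that the controls had themselves a deleted *Qpc* allele. Recombination was limited to cells in which the *Six2* promoter drives Cre and to their descendants. Nothing in the labels says whether the libraries came from separate embryos, and the p-values measure only the spread between these samples.

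The mt ribosome translates the few messenger RNAs made from mt DNA, all of which encode subunits of the oxidative phosphorylation complexes, cytochrome *b* of complex III among them. Its ribosomal RNAs come from mt DNA, whereas every one of its proteins is encoded in the nucleus, made in the cytosol and imported. Many of the proteins descend from those of bacterial ribosomes, and others were added in the mitochondrion. The symbols are older than the structures: MRPS18A and MRPS30 sit in the large subunit, and MRPS36 is an adaptor of the α-ketoglutarate dehydrogenase complex, whose gene is kept in the counts of 76 because the rule went by name.

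The comparison asked whether transcripts of these genes differed between SIX2 progenitors homozygous and heterozygous for the inactivation of *Qpc*. The targeted gene was checked first. *Uqcrq* was at 107.0, 76.8, 91.1 and 101.4 counts per 1000000 (CPM) in the controls and at 16.4, 28.2, 22.6, 20.3 and 19.0 CPM in the mutants, a log2 fold change of −2.14 (SE 0.16, edgeR adjusted p = 2.09e-05). Libraries held 21040536 to 23986458 counts, and the 76 genes had between 172 and 7532 reads each in a library, so that spread between libraries rather than counting error set the precision for most of them. The labelled cell type was checked against progenitor markers, of which 0 of 11 tested passed an adjusted p of 0.05 in edgeR or DESeq2 (3 at an unadjusted p under 0.05, and 2 adjusted in limma-voom) and whose summed level was 2364 to 2822 CPM in controls and 2355 to 2768 CPM in mutants. *Six2*, whose promoter drives the sorted eGFP, was at 506 to 623 CPM in controls and 529 to 795 CPM in mutants (log2 fold change 0.30). Of the 3 at an unadjusted p it was the 1 with a positive value. The other 2 had negative values, *Crym* at −0.42 (edgeR adjusted p = 0.070) and *Pax2* at −0.55 (edgeR adjusted p = 0.088). Markers of other cells moved with genotype. Of 11 stromal markers 6 were higher in mutants (summed level 161 to 243 against 331 to 896 CPM). Of 8 macrophage markers 3 were higher (2.30 to 10.5 against 9.33 to 109 CPM). Of 10 markers of committed nephron cells 3 were lower (377 to 725 against 280 to 414 CPM). Over all tested genes 7.82% were called higher and 7.02% lower. At an unadjusted p under 0.05 in edgeR these counts were 9, 8 and 7, where 31.4% of all tested genes were in either direction. DESeq2 called 9, 6 and 4 in the same order, and limma-voom 9, 8 and 7, with 1 stromal marker lower. Of 6 endothelial markers 1 was higher (*Pecam1*) and 1 lower (*Plvap*), with a summed level of 16.8 to 25.7 against 7.89 to 15 CPM. *Plvap* made up most of the control sum, at 13.7 to 21.1 against 2.27 to 7.14 CPM. The median log2 fold change of the 6 was 0.46. No ureteric bud, erythroid, podocyte or proximal tubule marker passed the edgeR test. At an unadjusted p under 0.05 there were 3 of 5 for the ureteric bud, 2 of 4 for podocytes and 0 of the others, and 2 ureteric bud markers were lower with DESeq2 and with limma-voom. No listed marker was at 0 in every library, and the part of these cells in the values below was not tested. In bulk samples such as these, fewer cells of a type and less RNA per cell cannot be told apart.

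Few genes of the mt ribosome differed between genotypes. In edgeR's quasi-likelihood test, with p-values adjusted over all tested genes by the Benjamini-Hochberg method, 2 of the 76 passed an adjusted p of 0.05, or 2.63%, where 14.8% of all tested genes did. The 2 genes moved in opposite directions: *Mrpl43* was higher in mutants, where 7.82% of all genes were called higher, and *Mrps25* was lower, where 7.02% of all genes were called lower. The values of the genotypes did not overlap for 2 of the 76, *Mrps25* and *Mrpl2*, both lower in mutants, against 15.2% of all tested genes. At an unadjusted p under 0.05 there were 10 of the 76, or 13.2%, against 31.4% of all genes. The count moved with the method: DESeq2 called 4 higher and 2 lower (17.7% of all genes), limma-voom with quality weights 15 higher and 2 lower (32.5% of all genes), and edgeR 8 higher and 1 lower without mutant 74. Without control 73 edgeR called 0 of the 76 (6 at an unadjusted p under 0.05), and without mutant 78 again 0 (7 at an unadjusted p), while the share of the 76 genes called was below that of all genes in each of 18 settings.

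The fitted changes were small. The median log2 fold change, mutant against control, was 0.08 over the 76 genes and −0.01 over all tested genes, with 49 values above 0 and 27 below. The median size of the change, sign aside, was 0.14 for the 76 genes and 0.30 for all genes. Their standard errors were also smaller, with a median of 0.14 against 0.19. Among the 8584 tested genes of like level (mean of 10.1 to 248 CPM) the median standard error was 0.16, and 16.3% were called. All 76 of the 95% intervals of the members lay within a 2-fold change in either direction. The lowest bound was −0.68 (*Mrps25*) and the highest 0.88 (*Mrps18b*) on the log2 scale, and for 52 of the 76 genes the whole interval lay within 0.5 of 0. A 2-fold difference was thus outside the interval of every gene, whereas the median distance from a value to its interval's bounds, 0.30, was above the change fitted for most of them.

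**Figure D1:**
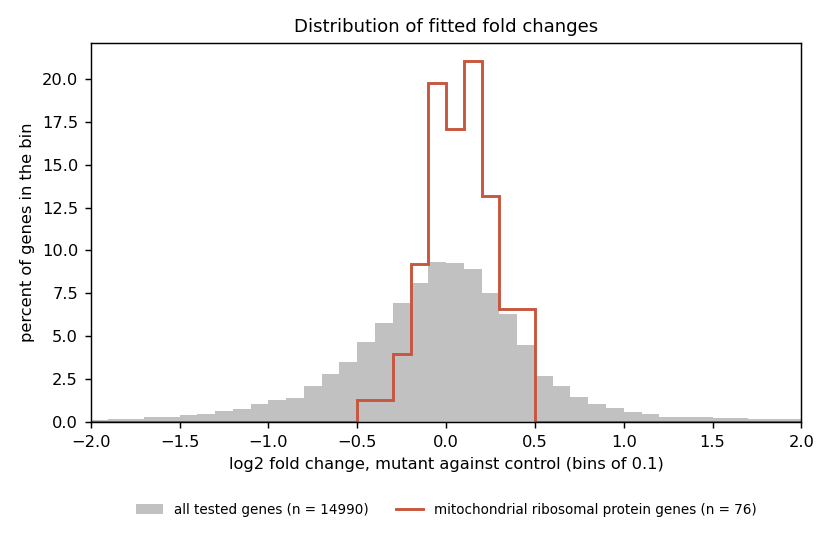
Share of genes (vertical axis, percent) in each bin of 0.1 of the fitted log2 fold change, mutant against control (horizontal axis), for the 76 mt ribosomal protein genes (red line) and all 14990 tested genes (grey). The red distribution is narrower and its median is 0.08, against −0.01 for all genes; genes beyond 2 on the log2 scale are not drawn.

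The 76 genes lie on 17 chromosomes, and the promoters of those the results turn on are shown before their values. Many mt protein genes have binding motifs of the ETS family (which holds the mt regulator GABP), of NRF1 and of YY1 near their start, and those letters were searched on both strands in the RefSeq promoter windows (build GRCm38.p6, 250 bases before to 50 after the start), of which 67 of the 76 genes had one. Only stretches free of annotated exons are printed, 5′ to 3′ on the gene's own strand, and capitals mark a match. *Mrps25* and *Mrpl43* are shown as the called genes, *Mrpl2* as the other gene without overlap, and *Mrpl12* for its NRF1-type match.

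Mrps25, chr6:92184034-92184193, minus strand, capitals mark a CCAAT box (ATTGG on this strand): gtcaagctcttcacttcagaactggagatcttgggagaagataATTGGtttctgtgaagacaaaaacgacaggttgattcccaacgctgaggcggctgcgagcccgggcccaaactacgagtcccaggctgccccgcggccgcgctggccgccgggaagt
Mrpl43, chr19:45006443-45006557, minus strand, capitals mark 2 ETS-type matches (CCGGAAG): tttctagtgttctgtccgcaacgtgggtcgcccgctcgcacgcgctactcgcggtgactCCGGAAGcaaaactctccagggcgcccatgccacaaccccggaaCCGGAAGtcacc
Mrpl2, chr17:46646061-46646220, plus strand, capitals mark 1 E-box (CACGTG) and 2 CCAAT boxes (ATTGG on this strand): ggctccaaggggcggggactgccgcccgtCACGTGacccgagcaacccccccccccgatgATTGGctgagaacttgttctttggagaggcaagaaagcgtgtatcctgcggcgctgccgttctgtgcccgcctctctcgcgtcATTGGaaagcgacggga
Mrpl12, chr11:120484453-120484612, plus strand, capitals mark an NRF1-type match (GCGCANGCG, here on the opposite strand): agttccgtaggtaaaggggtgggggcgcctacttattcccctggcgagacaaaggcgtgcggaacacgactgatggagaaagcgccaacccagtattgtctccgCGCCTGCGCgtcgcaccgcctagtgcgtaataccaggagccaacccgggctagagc

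Of the 67 windows, 23 held CCGGAAG (34.3%, against 17.5% of 9937 windows of other tested protein-coding genes), 16 held GCGCANGCG (23.9% against 13.7%) and 12 held ATGGCGG, the letters of the YY1 motif (17.9% against 8.09%). CCAAT was found in 26 (38.8% against 38.5%) and the E-box CACGTG in 5 (7.46% against 10.1%). The composite letters TGATGNAA, which ATF4 with a C/EBP partner can bind, were in 0 of the 67 windows and in 2.12% of the others. These shares describe letters in the windows and not binding. The 2 called genes did not share a motif, since *Mrpl43* held ETS-type matches and the *Mrps25* stretch a CCAAT box.

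*Mrps25* encodes a small subunit protein without a bacterial counterpart. Its transcript was at 78.05, 59.3, 68.8 and 74.9 CPM in the controls and at 49.0, 55.8, 54.6, 54.2 and 46.96 CPM in the mutants. The highest mutant value was below the lowest control value. The log2 fold change was −0.43 (SE 0.12, edgeR adjusted p = 0.028), a fold of 0.742 with a 95% interval from 0.622 to 0.884. The gene lies at chr6:92169525-92184033 (mm10) on the minus strand. In the GENCODE M21 annotation 4590 bases, 69.8% of its exon sequence, overlap exons of *Nr2c2* on the opposite strand, and because the libraries kept no strand the reads there cannot be assigned to either gene. *Nr2c2* itself was at 33.5 CPM on average with a log2 fold change of −0.24 (edgeR adjusted p = 0.42). How the authors' counting treated shared exons is not given in the sources used here, and the *Mrps25* value is therefore uncertain. The adjusted p stayed under 0.05 in 12 of 18 settings and ranged from 0.002 to 0.073, with the highest value without control library 71.

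*Mrpl43* encodes a large subunit protein that is likewise particular to mitochondria. It was at 77.2, 54.7, 67.9 and 82.3 CPM in the controls and at 86.4, 112.6, 108.7, 108.0 and 77.5 CPM in the mutants. The groups overlapped, because the mutant library 79 was below the control library 76. The log2 fold change was 0.48 (SE 0.15, edgeR adjusted p = 0.047), a fold of 1.40 with a 95% interval from 1.12 to 1.75. The gene, at chr19:45005014-45006442 (mm10) on the minus strand, shares 507 bases of exon, 33.4% of its exon sequence, with the oppositely oriented *Peo1* (*Twnk*), which encodes the mt DNA helicase. *Peo1* was at 45.9 CPM with a log2 fold change of −0.27 (edgeR adjusted p = 0.44). The call for *Mrpl43* held in 11 of 18 settings. Without control library 72, which had its lowest value, the log2 fold change was 0.38 and the adjusted p 0.13.

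*Mrpl2*, which encodes a conserved protein of the large subunit, fell just short. It was at 130.5, 95.2, 105.4 and 115.2 CPM in controls and at 88.6, 87.6, 91.3, 87.7 and 83.6 CPM in mutants. The mutant values lay close together and all below the lowest control. The log2 fold change was −0.35 (SE 0.11, edgeR adjusted p = 0.052). The 2-sided exact permutation test over every split of the 9 libraries gave p = 0.00794, the smallest it can give. This value is not adjusted for the number of genes, and *Mrps25*, the other member without overlap, had the same. It restates the lack of overlap, which 15.2% of all tested genes showed, and is no separate evidence of a difference. No exon of another annotated gene overlapped it. With 1 surrogate variable as a covariate its adjusted p was 0.008, and it passed in 6 of 18 settings.

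**Figure D2:**
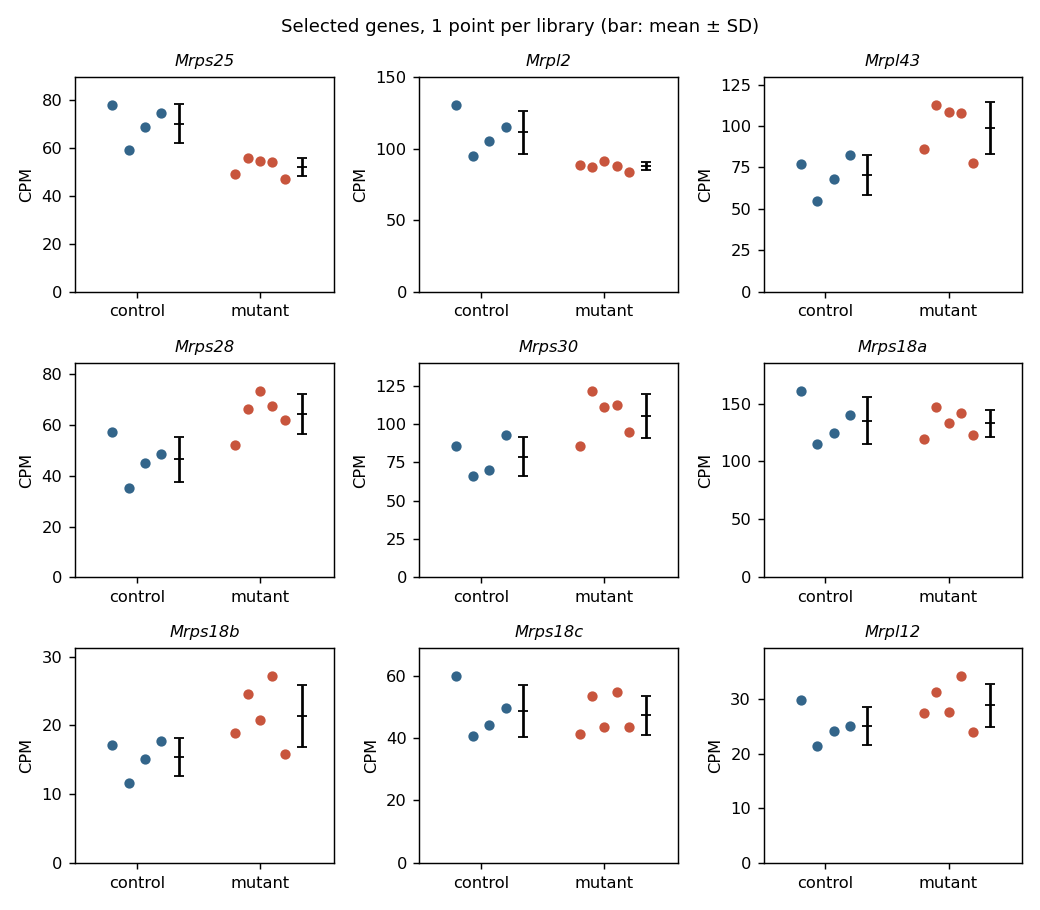
Level (CPM, vertical axis from 0) of 9 genes in each library (1 point each, controls blue, mutants red), with the mean ± SD as a black bar. Every mutant point is below every control point for *Mrps25* and *Mrpl2*, the groups overlap for the other 7 genes, and *Mrps18a* and *Mrps18c* have nearly equal means.

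Among the members that did not pass, the largest positive values were those of *Mrps18b*, *Mrps28* and *Mrps6*. *Mrps28*, which encodes a small subunit protein related to bacterial S1, was at 57.0, 35.3, 44.9 and 48.5 CPM in controls and at 52.2, 66.3, 73.5, 67.5 and 62.1 CPM in mutants. A single mutant library, 74, was below the highest control. Its log2 fold change was 0.47 (SE 0.15, edgeR adjusted p = 0.050, just above the threshold), and it passed in 6 of 18 settings. *Mrps6*, whose exons share 159 bases with *Slc5a3*, had a log2 fold change of 0.43 (SE 0.16, edgeR adjusted p = 0.096), and *Slc5a3* was itself higher in mutants (0.67, edgeR adjusted p = 0.043). On the negative side *Mrpl27*, a protein near the peptidyl transferase centre, was at −0.21 (edgeR adjusted p = 0.32) and *Mrps11*, of the small subunit platform, at −0.21 (edgeR adjusted p = 0.35), and both overlapped widely between genotypes.

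**Figure D3:**
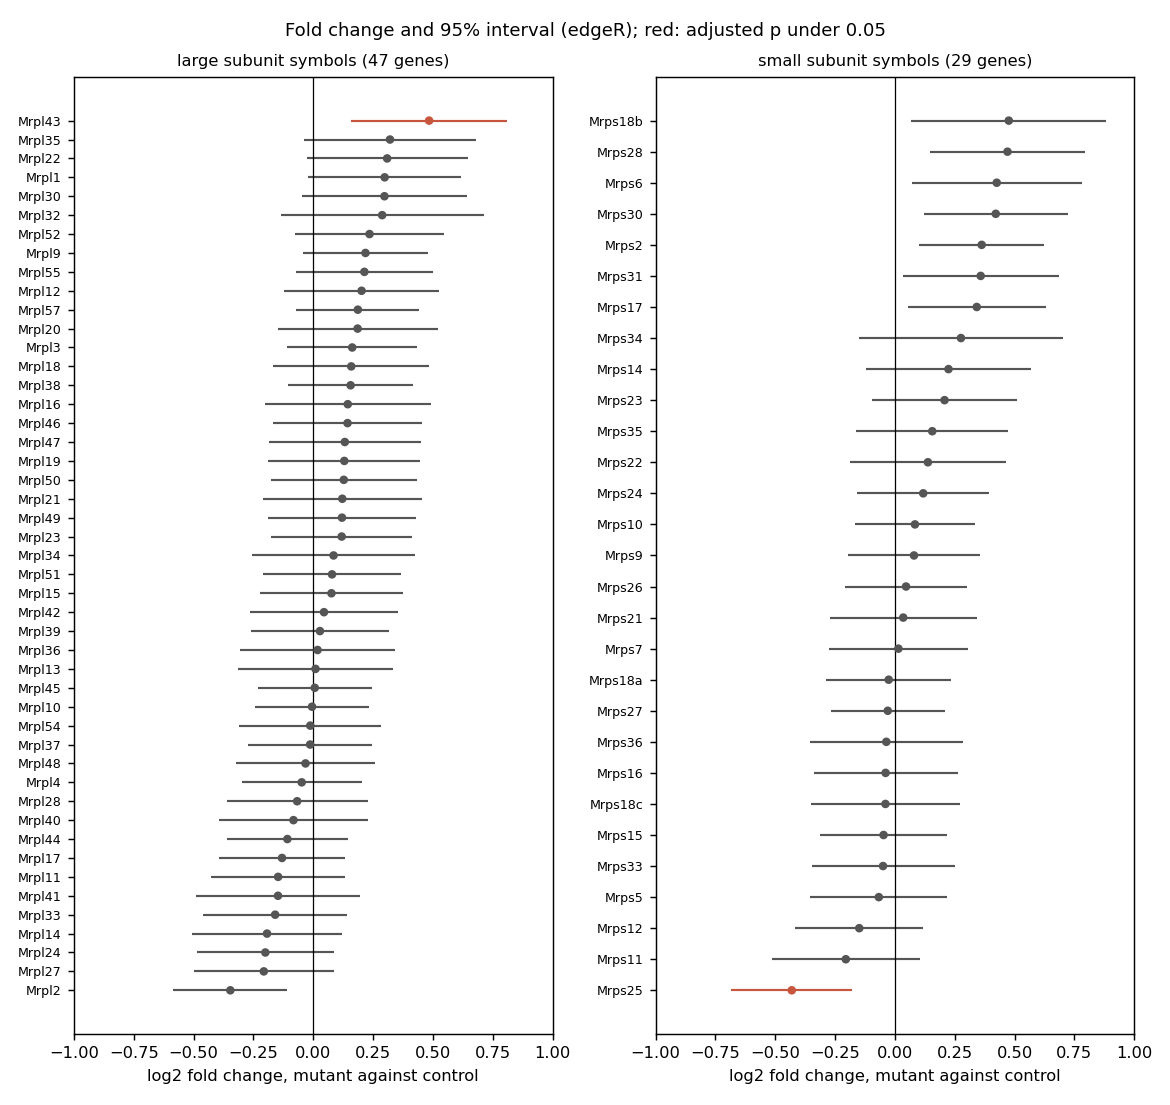
Fitted log2 fold change, mutant against control (horizontal axis), with its 95% interval for each of the 47 genes with the large subunit prefix (left) and the 29 with the small subunit prefix (right), ordered by value. The genes with an adjusted p under 0.05, *Mrpl43* and *Mrps25*, are red, and no interval reaches 1 in either direction.

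The subunits were then set side by side. The median log2 fold change was 0.09 for the 47 genes of the large subunit prefix, of which 31 were above 0, and 0.08 for the 29 of the small, of which 18 were above 0. With *Mrps18a* and *Mrps30* placed in the large subunit and *Mrps36* in neither, the medians were 0.09 for 49 genes and 0.08 for 26. The spread was wider in the small subunit, where the genes from the lower to the upper quartile lay between −0.04 and 0.28, against −0.04 and 0.17 in the large. Of the 10 genes with an unadjusted p under 0.05, 8 had the small subunit prefix (*Mrps25* lower, and *Mrps2*, *Mrps6*, *Mrps17*, *Mrps18b*, *Mrps28*, *Mrps30* and *Mrps31* with positive values) and 2 the large (*Mrpl43* and *Mrpl2*). The 8 are 27.6% of the 29 small subunit genes, near the 31.4% of all tested genes, and the 2 are 4.26% of the 47 large subunit genes. With limma-voom the calls were 9 in the small and 8 in the large subunit. *Mrps2* was at a log2 fold change of 0.36 (SE 0.12, edgeR adjusted p = 0.061), *Mrps17* at 0.34 (adjusted p = 0.099) and *Mrps31* at 0.36 (adjusted p = 0.12). The difference between the subunits was not tested.

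By origin, 0 of 29 large subunit genes with a bacterial homologue passed in edgeR (median log2 fold change 0.12, with 1 at an unadjusted p under 0.05, 1 in DESeq2 and 7 in limma-voom), 0 of 16 in the small subunit (0.06, with 4 at an unadjusted p, 2 in DESeq2 and 4 in limma-voom), 1 of 18 mitochondria-specific genes of the large subunit (0.06, with 1 at an unadjusted p, 1 in DESeq2 and 1 in limma-voom) and 1 of 10 in the small (0.15, with 3 at an unadjusted p, 1 in DESeq2 and 4 in limma-voom). The last 10 include *Mrps18b*, although it is a homologue of bacterial S18. It was 1 of the 3 at an unadjusted p and 1 of the 4 in limma-voom. Over all tested genes 14.8% passed in edgeR, 17.7% in DESeq2 and 32.5% in limma-voom, and 31.4% were at an unadjusted p under 0.05 in edgeR. By place in the ribosome, the 4 genes of the L7/L12 stalk, which recruits the translation factors, had a median of −0.01, and *Mrpl12*, the stalk protein that also binds the mt RNA polymerase, was at 0.20 (SE 0.15, edgeR adjusted p = 0.38). *Mrpl12* was at 29.8, 21.4, 24.1 and 24.98 CPM in controls and 27.4, 31.3, 27.5, 34.1 and 23.9 CPM in mutants, with overlap. The 7 genes at the exit tunnel had a median of 0.03. Of these *Mrpl45*, which ties the ribosome to the inner membrane, was at 0.01 (95% interval −0.23 to 0.24) and *Mrpl44*, a protein related to ribonuclease III, at −0.11 (−0.36 to 0.15). The 6 genes of the central protuberance had a median of 0.06 and the 4 at the mRNA channel one of 0.14.

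The 3 homologues of bacterial S18 sit in different places and differed in value. *Mrps18c*, which takes the place of the bacterial protein in the small subunit, was at 59.8, 40.6, 44.3 and 49.6 CPM in controls and 41.4, 53.3, 43.4, 54.8 and 43.4 CPM in mutants (log2 fold change −0.04, 95% interval −0.35 to 0.27). *Mrps18a*, of the large subunit, was at 161.1, 115.3, 124.7 and 140.2 CPM in controls and 119.6, 147.1, 133.5, 141.6 and 122.6 CPM in mutants (−0.03, −0.29 to 0.24). Neither gene's genotypes could be separated. *Mrps18b*, the third homologue and also in the small subunit, was the least abundant, at 17.2, 11.7, 15.1 and 17.7 CPM in controls and 18.8, 24.5, 20.8, 27.1 and 15.8 CPM in mutants. Its log2 fold change was 0.48 (SE 0.19, edgeR adjusted p = 0.10) and the groups overlapped through mutant 79. *Mrps30*, of the large subunit despite its symbol, was at 85.9, 66.0, 70.0 and 92.7 CPM in controls and 86.0, 121.8, 111.3, 112.4 and 95.1 CPM in mutants (0.42, SE 0.14, edgeR adjusted p = 0.059). *Mrps36*, the dehydrogenase adaptor, was at −0.04 (95% interval −0.35 to 0.28).

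Levels between genes were compared per length, as counts per kilobase of exon and per 1000000 counts (FPKM) in the controls. They spanned 4.81 to 311 FPKM with a median of 53.7 FPKM. In the large subunit *Mrpl42* (311 FPKM), *Mrpl28* (243 FPKM) and *Mrpl23* (208 FPKM) were highest and *Mrpl19* (10.6 FPKM) lowest. In the small subunit *Mrps21* (139 FPKM), *Mrps16* (118 FPKM) and *Mrps12* (114 FPKM) were highest and *Mrps34* (4.81 FPKM) lowest. Most of the proteins are present in equal numbers in a ribosome, whereas the transcripts were far from equal by this measure. The measure rests on the deposited exon lengths, and all GENCODE M21 exons together are longer for some genes. The lengths were 666 against 3682 bases for *Mrpl42*, 712 against 4883 for *Mrpl23* and 566 against 2875 for *Mrps16*. They were closer for *Mrps21* (714 against 739), *Mrpl28* (1048 against 1380) and *Mrps12* (883 against 1040). The order of the genes and their span thus depend on the length used. Both of the lowest genes share exon sequence with a neighbour: 63.4% of the *Mrps34* exons overlap those of *Mapk8ip3* and 36.0% of the *Mrpl19* exons those of *Gcfc2*, and the part of this overlap in their low values was not tested. The change between genotypes was small at the abundant end, with log2 fold changes of 0.05 for *Mrpl42*, −0.07 for *Mrpl28*, 0.12 for *Mrpl23*, 0.03 for *Mrps21*, −0.04 for *Mrps16* and −0.15 for *Mrps12*, none of which passed the test. At the low end the values were 0.13 for *Mrpl19* and 0.28 for *Mrps34*, which did not pass either.

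The genes varied together from library to library, and that variation was larger than the difference between genotypes. Summed over the 76 genes the level was 7655, 5545, 6181 and 7117 CPM in control libraries 71, 72, 73 and 76 (6624 ± 943, SD, n = 4) and 5961, 7660, 7403, 7675 and 6241 CPM in mutant libraries 74, 75, 77, 78 and 79 (6988 ± 823, SD, n = 5). The ratio of the means was 1.06, less than the spread within either genotype. Control 72 had the lowest control value for 71 of the 76 genes, whereas it was the lowest control for 28.01% of all tested genes, and control 71 had the highest for 56. In the mutants, library 74 was the lowest for 50 genes and library 79 for 24, and the highest value was in library 78 for 32 genes and in library 75 for 29. Low and high libraries thus occurred in both genotypes. *Mrps5*, a protein at the mRNA channel, ran the other way: its highest control value, 67.5 CPM, was in library 72 and its highest mutant value, 68.6 CPM, in library 74.

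**Figure D4:**
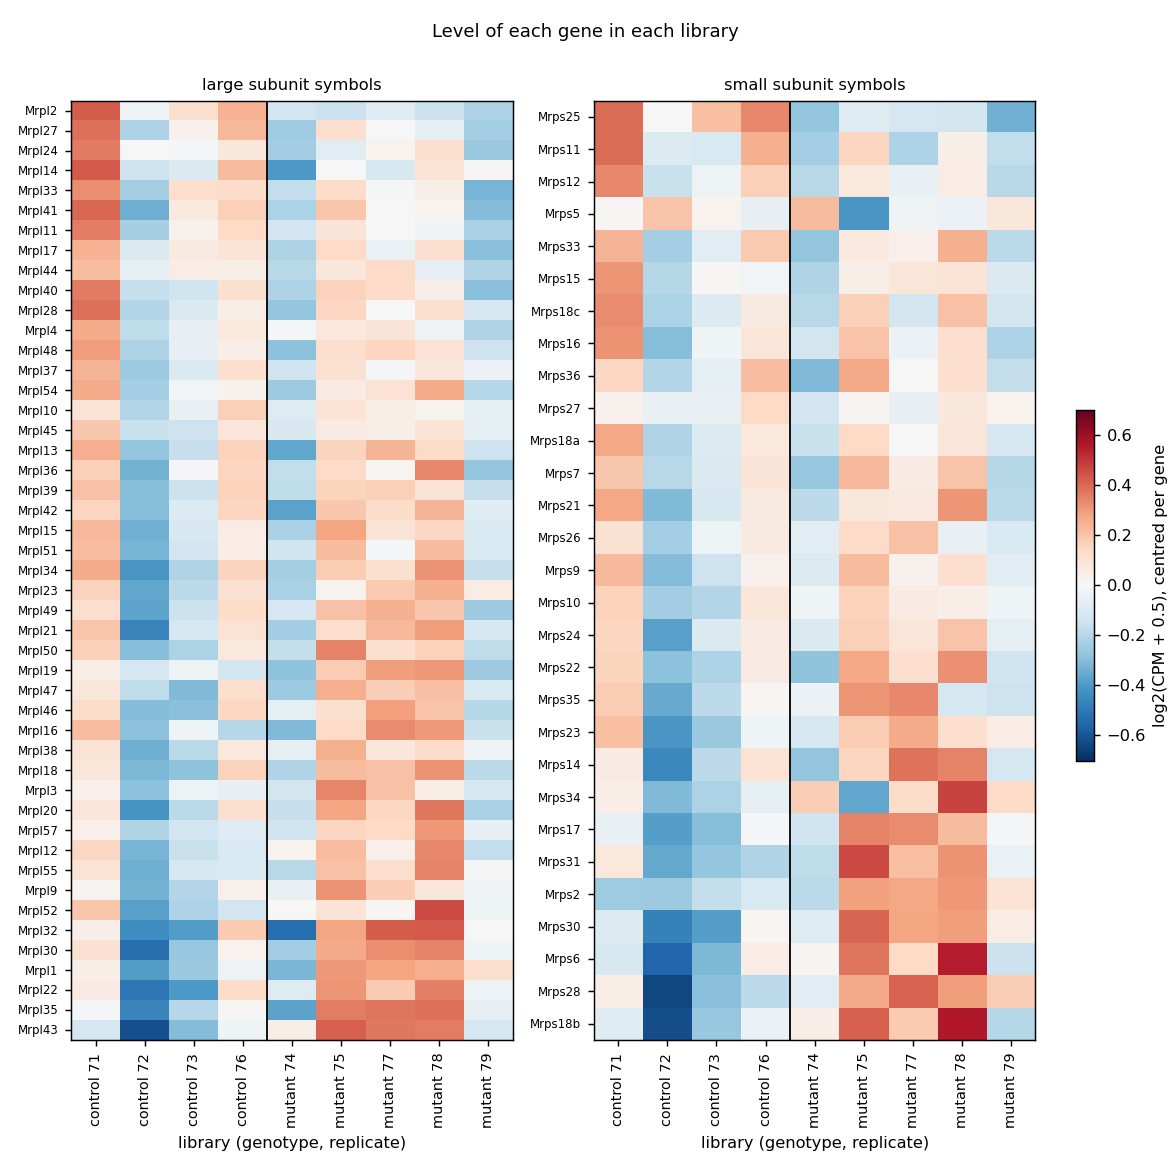
Level of each of the 76 genes (rows, large subunit prefix left, small right, ordered by fold change from lowest at the top) in each of the 9 libraries (columns, controls left of the black line), as log2(CPM + 0.5) minus the gene's mean over libraries. Controls 72 and 73 and mutants 74 and 79 are low (blue) over most rows, and controls 71 and 76 and mutants 75, 77 and 78 high (red).

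Values of other kinds moved with this pattern. Over 1729 other protein-coding genes with at most 1500 bases of exon, the median centred log2 CPM was 0.19, −0.19, −0.06 and 0.07 in controls 71, 72, 73 and 76 and −0.16, 0.12, 0.07, 0.10 and −0.15 in mutants 74, 75, 77, 78 and 79. For the 76 genes the same measure was 0.16, −0.30, −0.13 and 0.07 in the controls and −0.18, 0.16, 0.12, 0.19 and −0.12 in the mutants. Short transcripts were therefore low in the same libraries, and the part of transcript length in the pattern was not tested. TMM normalization factors were 1.01 to 1.09 in controls and 0.933 to 1.03 in mutants. As a share of all counts, without these factors, the 76 genes took 0.601% to 0.770% in controls (mean 0.684%) and 0.615% to 0.721% in mutants (mean 0.676%), so the small difference between the means turned from higher to lower with the scaling. Without control 72 the median log2 fold change of the 76 genes was −0.0048.

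The balance of the subunits, split by symbol prefix, varied less than their level. The summed CPM of the Mrps genes divided by that of the Mrpl genes was 0.488, 0.507, 0.499 and 0.495 in controls 71, 72, 73 and 76. It was 0.521, 0.510, 0.508, 0.506 and 0.519 in mutants 74, 75, 77, 78 and 79. The Mrps sum includes *Mrps18a*, *Mrps30* and *Mrps36*, whose proteins are not in the small subunit. The highest control and the lowest mutant met, and the means were 0.497 ± 0.008 (SD, n = 4) and 0.513 ± 0.007 (SD, n = 5). In both genotypes the ratio was higher in the libraries where the summed level was lower, control 72 and mutants 74 and 79. The ratio is given as a description without a test.

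**Figure D5:**
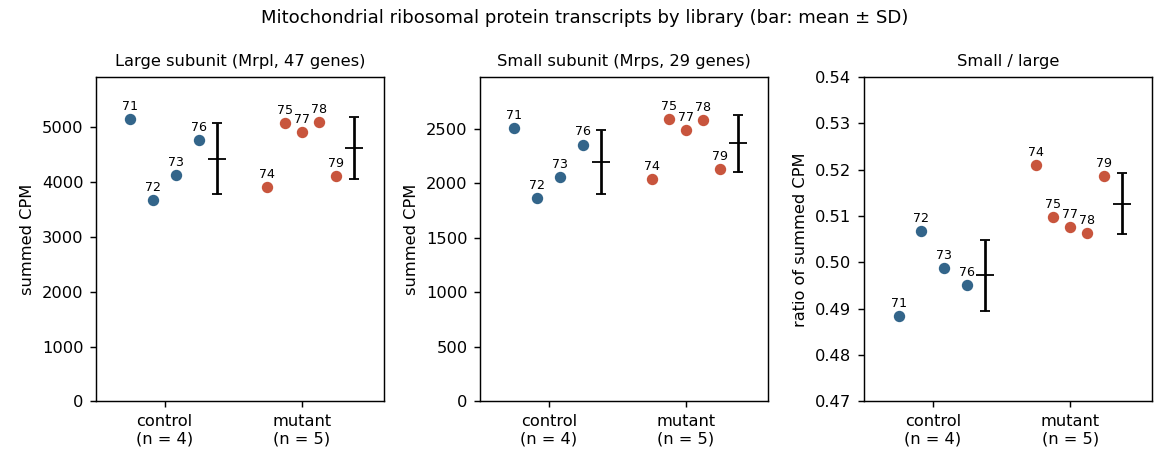
Summed level (CPM) of the 47 genes with the large subunit prefix (left), of the 29 with the small subunit prefix (middle) and the ratio of small to large (right, where the axis does not start at 0). Each library is 1 numbered point, with the mean ± SD as a black bar. The genotypes overlap in both sums, and control 72 (0.507) and mutant 78 (0.506) meet in the ratio.

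The other components of mt translation were described from lists of the same kind. Of the mt ribosomal proteins with other symbols (*Dap3*, *Ptcd3*, *Chchd1*, *Aurkaip1*, *Ict1* and *Gadd45gip1*), 0 of 6 passed in edgeR, also at an unadjusted p under 0.05 and in DESeq2, while limma-voom called 1 higher. Their median log2 fold change was −0.01. Of 27 assembly factors 1 was lower (4 at an unadjusted p under 0.05, 1 in DESeq2 and 6 in limma-voom), or 3.70% where 7.02% of all tested genes were lower, and 0 were higher (3 at an unadjusted p, 0 in DESeq2 and 3 in limma-voom), with a median of −0.09. The one that fell was *Mtg2*, a GTPase that acts in large subunit assembly, at 33.6, 34.8, 35.6 and 30.7 CPM in controls and 20.5, 25.1, 25.6, 24.1 and 23.7 CPM in mutants, without overlap (log2 fold change −0.50, SE 0.13, edgeR adjusted p = 0.019). A list of 14 mt translation genes held factors of initiation, elongation, release and recycling, and also *Oxa1l*, *Lrpprc*, *Slirp* and *Taco1*. Of the 14, 1 was lower (2 at an unadjusted p, 1 in DESeq2 and 2 in limma-voom), or 7.14%. In the other direction 0 were higher (1 at an unadjusted p, *Lrpprc*, 0 in DESeq2 and 1 in limma-voom), and the median was 0.11. The gene called lower was *Mtrf1*, a release factor, at 31.4, 24.5, 24.9 and 28.1 CPM in controls and 16.9, 21.1, 20.04, 19.2 and 20.05 CPM in mutants, again without overlap (−0.48, SE 0.14, edgeR adjusted p = 0.032). The call for *Mtrf1* held in 11 of 18 settings, with an adjusted p of up to 0.087 (without control 71), and that for *Mtg2* in 16 of 18, with up to 0.069 (without control 73). Transcripts for proteins of the cytosolic ribosome, which makes the mt ribosomal proteins themselves, took 4.18% to 5.25% of counts in controls and 5.27% to 6.86% in mutants. In edgeR 23 of 80 genes were called higher and 1 lower, where 7.82% of all tested genes were higher and 7.02% lower. The median log2 fold change of the 80 was 0.39. The corresponding median for the mt ribosome was 0.08, and the difference between the families was not tested.

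The position of the genes was examined last. A protein-coding gene began within 1000 bases on the opposite strand at 33 of the 76 genes (43.4%), against 15.9% of the 12835 tested protein-coding genes that matched the annotation, and *Mrps11* and *Mrpl46* were such neighbours of each other. Among the 32 partners that were tested, 0 were called higher (2 at an unadjusted p under 0.05, 1 in DESeq2 and 2 in limma-voom) and 3 lower (6 at an unadjusted p, 4 in DESeq2 and 7 in limma-voom). The 3 are 9.38% of the partners, near the 7.02% of all tested genes called lower. *Eme1*, a DNA repair endonuclease subunit, was at −0.79 (edgeR adjusted p = 0.0097) and *Cyb5rl* at −0.89 (adjusted p = 0.025), whereas their partners *Mrpl27* and *Mrpl37* were at −0.21 and −0.01. *Sars2*, the mt seryl-tRNA synthetase, was at −0.46 (edgeR adjusted p = 0.030) and its partner *Mrps12* at −0.15. None of the 3 members beside a called neighbour passed the edgeR test, but with 1 surrogate variable as a covariate *Mrpl27* (−0.32, edgeR adjusted p = 0.017) and *Mrps12* (−0.24, edgeR adjusted p = 0.049) were called lower.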

How the data were processed

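RNA-seq counts of SIX2 progenitors (4 control and 5 mutant libraries) were used. Per the labels, cDNA was amplified from low-input RNA with poly(A) selection and without strand. The submitters' processing notes name STAR, DESeq2 and mm10. The authors deposited whole-number read counts per gene. They also deposited FPKM (counts per kilobase and per 1000000 library counts), a signal per genotype (the mean of the authors' counts after size factor division), and the log2 fold change and p-value columns of the authors' own comparison, none of which was used; FPKM printed here were computed from the counts. The counts were tested in R 4.3.3 with edgeR 4.0.16: filterByExpr on genotype, TMM factors, the robust quasi-likelihood test and Benjamini-Hochberg adjustment over all 14990 genes. CPM are counts per 1000000 of the normalized library size. Single genes were also compared by 2-sided exact permutation over every split of the libraries. The 95% intervals are log2 fold change ± SE times the t quantile of the fit. On data simulated for this comparison (14990 genes), 10% of 1.5-fold and 54% of 2-fold changes were recovered. Only 100 genes were changed at each size, whereas edgeR called 2225 genes in the real data. Recovery was not measured for the mt ribosomal protein genes alone, whose standard errors were smaller (median 0.14 against 0.19 for all genes). These percentages therefore do not give the sensitivity for the mt ribosomal protein genes.

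The genes and lists were chosen with earlier results of these data known. Genes named were those past the threshold, the 3 largest changes each way among the rest, the 3 highest and the lowest levels per length in each subunit, *Mrps18a*, *Mrps18b*, *Mrps18c*, *Mrps30*, *Mrps36*, *Mrpl12*, *Mrpl44*, *Mrpl45*, genes past the threshold in the other mt translation lists, and *Uqcrq*. *Mrps2*, *Mrps5*, *Mrps17*, *Mrps31* and the neighbouring genes were chosen after their values were seen. GENCODE M21 (GRCm38) gave exon overlaps and neighbours, and matched 75 of 76 identifiers. Alternatives were DESeq2 1.42.0, RLE, upper-quartile and member-free TMM factors, 2 other filters, limma-voom (limma 3.58.1), a surrogate variable as covariate (sva 3.50.0), unadjusted p, omission of single libraries and other member sets. Figures were drawn with matplotlib 3.10.9.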

Additional observations from a re-analysis of the deposited data

How the results depend on the processing

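Medians and the summed CPM ratio kept within 1 SD of the spread between libraries in every setting run. For the 76 genes the median log2 fold change ranged from −0.02 (1 surrogate variable) to 0.18 (limma-voom), below 0 also without control 72, and leaving out members whose gene span overlaps another gene left 46 and a median of 0.10, or 0.08 without those with shared exons (chosen after seeing the data). The share of the 76 genes called was below that of all genes in all 18 settings. The counts called higher and lower were 4 and 2 with DESeq2, 0 and 2 with upper-quartile factors, 2 and 2 with at least 10 counts in every library, 15 and 2 with limma-voom (where 32.5% of all genes were called), 5 and 5 with 1 surrogate variable, and 8 and 2 at an unadjusted p under 0.05. Without a filter, 0 were lower. Leaving out 1 library gave 0 to 8 higher, with 8 without mutant 74, and 0 to 2 lower. Without control 73 or mutant 78 no gene was called in either direction by edgeR (6 and 7 at an unadjusted p under 0.05). Over the named genes, 367 of 442 alternative values kept direction and side of the threshold, 21 gained and 22 lost a call, and 32 changed sign.

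The sign changes were all in genes near 0 and none passed the test. With limma-voom the log2 fold change was 0.0618 for *Mrpl28*, 0.0428 for *Mrps16*, 0.0720 for *Mrps18a*, 0.0761 for *Mrps18c* and 0.0583 for *Mrps36*. With 1 surrogate variable it was −0.10 for *Mrpl42*, −0.0057 for *Mrpl19*, −0.0857 for *Mrps21* and −0.0615 for *Mrpl45*, which was also at −0.0219 with upper-quartile factors. Leaving out 1 library gave ranges of −0.144 to 0.0632 for *Mrpl28*, −0.0401 to 0.132 for *Mrpl42*, −0.137 to 0.0681 for *Mrps16*, −0.0555 to 0.140 for *Mrps21*, −0.0966 to 0.0675 for *Mrps18a*, −0.117 to 0.0747 for *Mrps18c*, −0.113 to 0.0418 for *Mrps36* and −0.0434 to 0.0748 for *Mrpl45*. The cause was not tested. No paired analysis was possible because the genotypes share no replicate number in the labels. The summed ratio could not be given with limma-voom or a surrogate variable. The 76 genes had at least 172 reads each in every library.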

Other observations

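No library stood apart in Dixon's test within a genotype for any of the named genes or family sums: 0 of 60 groups passed its 95% limit, where chance gives about 3.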
